A study of Mus musculus with 42 samples.

Results

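The olfactory receptor (Olfr) genes of mouse chromosome 7 were examined for their association with the nuclear lamina in liver. The members were the protein-coding genes on chromosome 7 of the GENCODE vM21 annotation (mm10) whose symbol begins with Olfr. There were 244 such genes among 21938 protein-coding genes. A member was scored as lying in a lamina-associated domain (LAD) of a library when its annotated start site fell inside a LAD of that library.

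The series profiled wild-type C57Bl/6 mice whose liver clock was entrained by food. The non-synchronized (NS) group was sampled at midday, before any fasting began. The other groups were fasted for 24 h, given food freely from circadian time CT0, and taken at CT0, CT6, CT12, CT18, CT24 and CT30. Chromatin bound by lamin B1 (LMNB1) was recovered with the Abcam ab16048 antibody and sequenced from 2 mice per time point, 14 libraries in all, and LADs were called separately in each. All groups shared strain and genotype, and the sample fields call the mice female while the husbandry text calls them male. Liver identity was not checked against markers because LAD intervals hold no expression values. Liver is a mixture of cell types, and in such bulk chromatin a contact made in fewer cells and a weaker contact in every cell cannot be told apart.

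LADs are megabase-scale stretches of chromatin that touch the meshwork of lamins under the inner nuclear membrane, and they are mostly gene-poor, late-replicating and silent. Olfactory receptors are G protein-coupled receptors with 7 membrane-spanning segments. Each olfactory sensory neuron expresses a single receptor allele from the whole repertoire, while the other receptor genes stay packed in heterochromatin, and outside the nose nearly all of them are silent. The genes lie in tandem clusters. The class I receptors, related to those of fish, sit on chromosome 7 in a large array that surrounds the beta-globin genes, and class II receptors make up the remaining clusters. Members separated by a start-site gap of over 1 Mb were placed in different clusters here, which gave 7 clusters.

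Promoter windows of 5 members are shown because they stand for the different LAD states described below. Each window runs from 250 bases before to 50 bases after the GENCODE start site and was read 5′ to 3′ on the strand of the gene from GRCm38.p6, the RefSeq copy of mm10. Capitals mark matches to TATAAA (the core of a TATA box) or TAATTA (a homeodomain core) on either strand. TAATTA is its own reverse complement, and in TTTATAAA matches on both strands overlap. Olfr310, on the minus strand at chr7:86277123-86277422, was in a LAD in 12 libraries. Olfr596, on the plus strand at chr7:103305398-103305697, and Olfr474, on the plus strand at chr7:107954393-107954692, were each in a LAD in 9 libraries. Olfr535, on the plus strand at chr7:140483966-140484265, and Olfr544, on the minus strand at chr7:102488264-102488563, were in a LAD in 0 libraries. The first 4 are the first members by position with a match in their stretch, and Olfr544 was taken from a list of members with known ligands.
Olfr310: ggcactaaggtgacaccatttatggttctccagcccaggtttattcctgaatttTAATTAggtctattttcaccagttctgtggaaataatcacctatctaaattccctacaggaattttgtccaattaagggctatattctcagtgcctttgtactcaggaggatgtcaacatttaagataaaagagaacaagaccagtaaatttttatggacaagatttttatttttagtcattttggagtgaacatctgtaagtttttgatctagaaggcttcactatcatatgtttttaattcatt
Olfr596: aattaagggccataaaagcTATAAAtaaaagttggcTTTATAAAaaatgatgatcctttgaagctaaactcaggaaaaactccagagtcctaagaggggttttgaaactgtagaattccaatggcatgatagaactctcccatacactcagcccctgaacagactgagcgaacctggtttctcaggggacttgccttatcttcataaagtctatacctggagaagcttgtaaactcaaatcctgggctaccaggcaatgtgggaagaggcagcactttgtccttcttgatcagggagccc
Olfr474: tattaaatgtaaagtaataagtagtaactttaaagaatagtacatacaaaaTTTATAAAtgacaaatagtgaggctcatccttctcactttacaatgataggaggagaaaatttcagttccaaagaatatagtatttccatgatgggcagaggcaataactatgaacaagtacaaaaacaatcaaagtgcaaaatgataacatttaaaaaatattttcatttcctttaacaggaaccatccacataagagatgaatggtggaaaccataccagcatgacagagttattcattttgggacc
Olfr535: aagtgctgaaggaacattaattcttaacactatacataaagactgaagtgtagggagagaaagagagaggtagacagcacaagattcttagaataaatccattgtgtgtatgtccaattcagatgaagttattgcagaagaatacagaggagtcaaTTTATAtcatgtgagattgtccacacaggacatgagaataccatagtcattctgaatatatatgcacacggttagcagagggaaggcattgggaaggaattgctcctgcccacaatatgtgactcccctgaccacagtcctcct
Olfr544: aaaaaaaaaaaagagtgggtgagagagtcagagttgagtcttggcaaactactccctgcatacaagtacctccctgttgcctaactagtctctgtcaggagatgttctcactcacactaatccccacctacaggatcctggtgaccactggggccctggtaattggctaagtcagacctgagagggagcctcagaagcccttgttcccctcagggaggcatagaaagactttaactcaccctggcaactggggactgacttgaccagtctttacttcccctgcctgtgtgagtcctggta

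The window of Olfr310 held 1 TAATTA match, that of Olfr596 held 3 TATAAA matches, that of Olfr474 held 2 and that of Olfr535 held 1, while that of Olfr544 held 0 of either motif. GC content of these windows was 33.7% for Olfr310, 43.0% for Olfr596, 30.7% for Olfr474, 40.3% for Olfr535 and 50.7% for Olfr544. The most AT-rich windows of the set were those of Olfr474 and Olfr310, and the window of Olfr544 was the least AT-rich. TATAAA occurred in 87 of the 244 member windows (35.7%) against 12.7% of all protein-coding windows, and TAATTA in 43 (17.6%) against 5.30%. Olfr genes of other chromosomes held TATAAA in 32.8% and TAATTA in 25.9% of their windows. Median GC content of the windows was 39.7% for members and 55.0% for all genes, and a match is a run of letters and not a shown binding site. The start site coincided with a start codon in 26 members (10.7%), Olfr474 among them, against 3.2% of all protein-coding genes. Such windows may not hold the promoter, and they were more frequent among members than among all genes.

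Over the 14 libraries the share of members in a LAD was 45.1% ± 29.2 (SD, n = 14), and it ranged from 3.28% to 74.6%. In the NS mice the share was 3.28% in replicate 1 and 64.3% in replicate 2. At CT0 the shares were 3.28% and 74.2%, and at CT6 they were 6.15% and 58.2%. These 3 time points thus each held a mouse with few members in LADs and a mouse with most of them in LADs. The 3 middle time points had high shares in both mice: 74.6% and 65.2% at CT12, 67.2% and 59.8% at CT18, and 58.2% and 68.0% at CT24. At CT30 both mice had low shares, 7.38% and 21.3%.

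**Figure D1:**
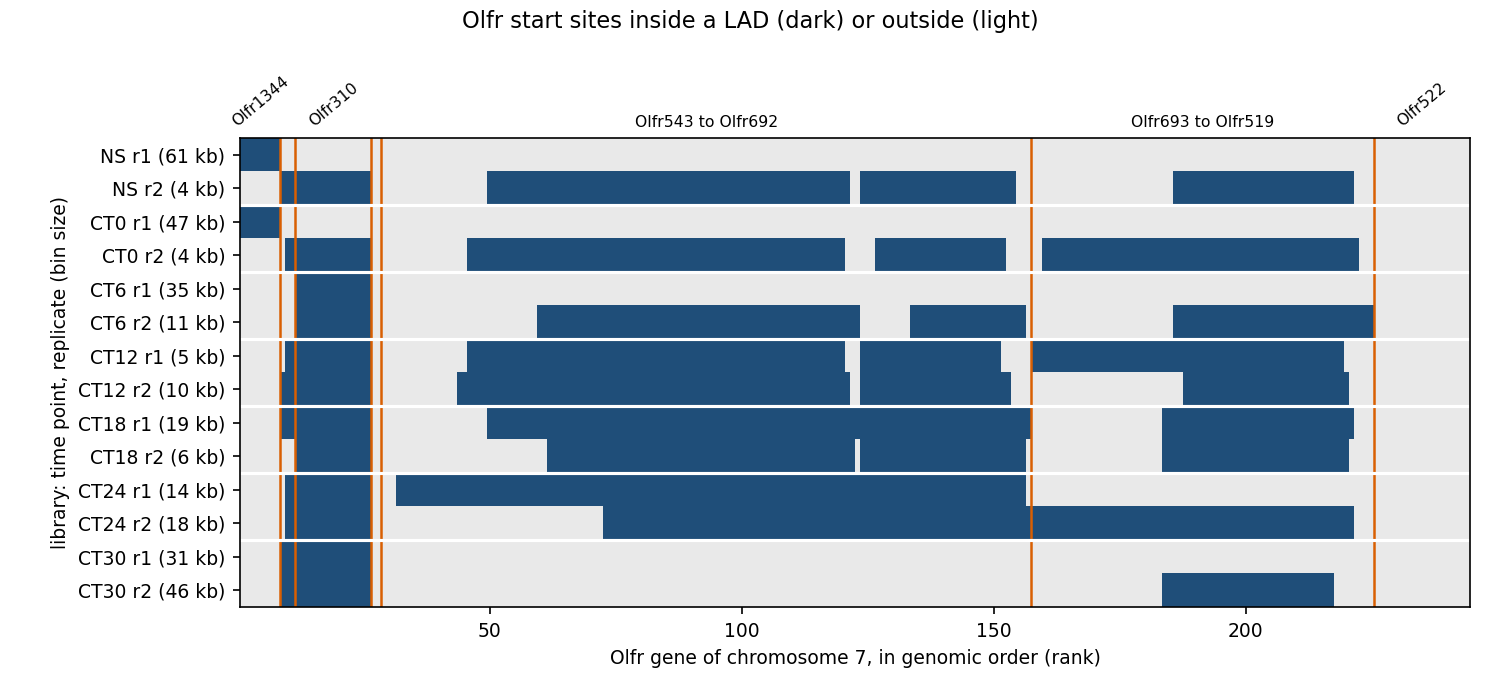
LAD state of each of the 244 Olfr genes of chromosome 7 (columns, in genomic order) in the 14 libraries (rows, with the bin size of each library in kb), dark where the start site lies in a LAD; orange lines separate clusters. Each of the 2 large clusters carries long dark blocks in 9 libraries, though not the same 9: CT24 replicate 1 has 125 of 129 class I and 0 of 68 class II members in LADs, and CT30 replicate 2 has 0 and 34. Both clusters are wholly light in NS replicate 1, CT0 replicate 1, CT6 replicate 1 and CT30 replicate 1.

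The libraries differed in the bin size with which LADs were called, and the member share moved with it. Bin size is the step, in whole kb, of the grid on which the LADs of a library start. It was 4 to 19 kb in 9 libraries and 31 to 61 kb in the other 5. The 9 libraries of smaller bins had member shares of 58.2% to 74.6% (65.5% ± 6.20, SD, n = 9). The 5 libraries of larger bins had 3.28% to 21.3% (8.28% ± 7.50, SD, n = 5), so the shares did not overlap. These 5 were NS replicate 1, CT0 replicate 1, CT6 replicate 1 and both CT30 mice, and they also covered less of the genome, 335 to 495 Mb against 527 to 663 Mb. Other protein-coding genes of chromosome 7 were in LADs at 12.4% to 16.9% in the first set of libraries and at 4.95% to 13.3% in the second, ranges that do overlap. The split was not particular to the members. Olfr genes of other chromosomes were at 52.4% to 67.7% in the first set and 5.50% to 49.4% in the second. All protein-coding genes that are not members were at 7.20% to 9.86% and 4.02% to 6.93%, again without overlap. No read depth or LAD score was used here, so depth is unknown. Among the 9 libraries of smaller bins, Pearson's r of the share with log2 bin size was -0.351 (exact permutation p = 0.342), and the part of bin size in the gap between the sets was not tested.

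**Figure D2:**
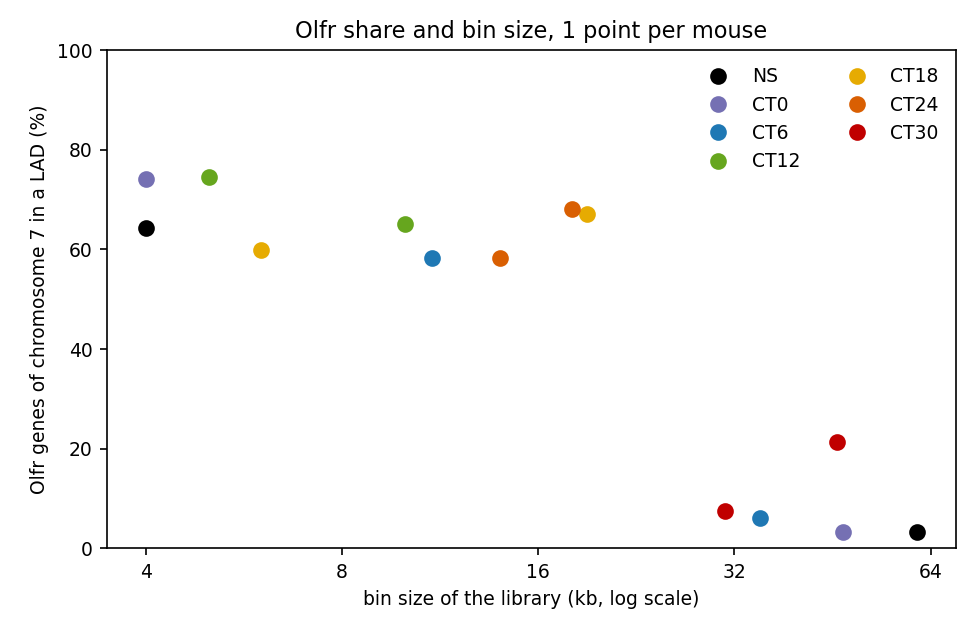
Percent of Olfr genes of chromosome 7 in a LAD (y axis) against the bin size of the library in kb (x axis, log scale), 1 point per mouse and coloured by time point. The 9 libraries of 4 to 19 kb lie between 58.2% and 74.6%, and the 5 libraries of 31 to 61 kb lie between 3.28% and 21.3%.

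By member, 220 of the 244 were in a LAD in at least 1 library, against 16.7% of all protein-coding genes, and 24 were in a LAD in no library, against 83.3%. Of the members, 144 were in a LAD in 7 or more libraries (background 7.79%) and 76 in 1 to 6. The most frequent count was 9 libraries, reached by 98 members, and the highest was 12, reached by 15. In all 14 libraries together 0 members were in a LAD (background 0.83%). Within the 9 libraries of smaller bins 81 members were in a LAD in every library (background 4.7%), whereas 60 members were in a LAD in some library of larger bins (background 10.9%). Members of a cluster share LADs and are not independent. The 244 states fell into 30 distinct patterns over the libraries, and the 220 members ever in a LAD were held by 41 LADs, 1 to 5 per library and 0.536 to 11.5 Mb long.

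**Figure D3:**
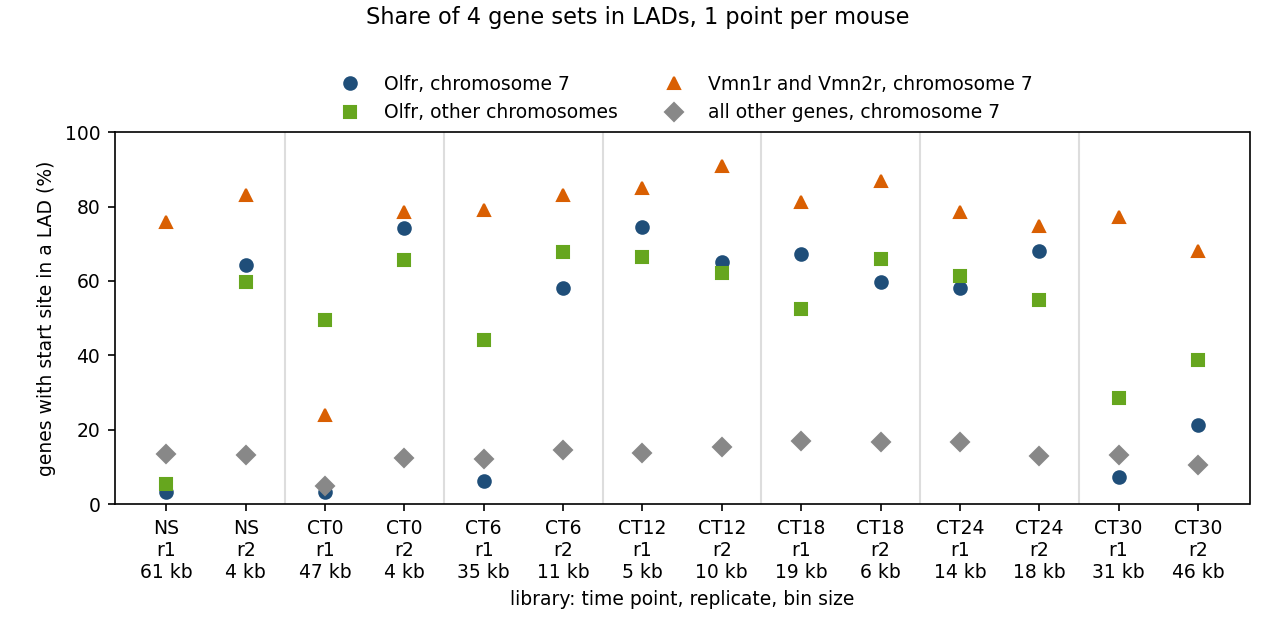
Percent of genes with the start site in a LAD (y axis) for 4 gene sets in each library (x axis, with replicate and bin size), 1 point per mouse. Olfr genes of chromosome 7 run from 3.28% to 74.6%, while Vmn1r and Vmn2r genes of the same chromosome lie above them in all 14 libraries.

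To ask how far these shares set the members apart, each library's share was compared with that of other gene sets in the same library by an exact two-sided sign-flip permutation test over the 14 libraries, with Benjamini-Hochberg adjustment over 5 comparisons. Members exceeded the other 1779 protein-coding genes of chromosome 7 by 31.8 percentage points (SD 27.5, n = 14, exact permutation adjusted p = 0.00509), and were higher in 10 of 14 libraries. They exceeded the 21694 protein-coding genes that are not members by 37.8 points (SD 28.0, exact permutation adjusted p = 0.00397), higher in 11 of 14. The 4 libraries in which members lay below their chromosome were NS replicate 1, CT0 replicate 1, CT6 replicate 1 and CT30 replicate 1. The other genes of chromosome 7 include 154 vomeronasal receptor genes, described below. Of the other genes in LADs, these were 117 of 237 in NS replicate 1 and 37 of 88 in CT0 replicate 1. They were 122 of 213 in CT6 replicate 1 and 119 of 234 in CT30 replicate 1. Members were not compared with chromosome 7 without them. In the 9 libraries of smaller bins alone the difference from chromosome 7 was 50.8 points, from 41.6 to 61.8. These 9 were chosen after seeing the data and are those with the high member shares. Differences within them are therefore given without a test. With LADs of at least 1 Mb the difference from chromosome 7 was 20.8 points over the 14 libraries.

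Compared with the 891 Olfr genes of other chromosomes, members were lower by a mean of 6.53 points (SD 18.4, higher in 6 of 14 libraries, exact permutation adjusted p = 0.221), a difference within the spread between libraries. In the 9 libraries of smaller bins members were 3.73 points higher. This is given with no test, because these are the same 9 libraries that carried a LAD in the class I array. With LADs of at least 1 Mb members were lower, at -13.5 points (exact permutation adjusted p = 0.0143). In the 5 libraries of larger bins the Olfr genes of other chromosomes were in LADs at 5.50% to 49.4%.

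The vomeronasal receptor genes of chromosome 7 (Vmn1r and Vmn2r, 154 genes that detect pheromones and likewise lie in silent tandem clusters) showed more of their start sites in LADs than the members did. The difference was 31.1 points (SD 24.4), with members lower in 14 of 14 libraries, exact permutation p = 0.000122 (adjusted p = 0.00061), the smallest p that this test can give. In the libraries of smaller bins alone the difference was -16.9 points (members minus Vmn genes), and Vmn shares there were 74.7% to 90.9%. In those of larger bins they were 24.0% to 79.2%. In NS replicate 1, for example, 76.0% of Vmn genes were in LADs and 3.28% of members.

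The 7 clusters had different LAD states along the chromosome. From the centromere, the first was a small array of 8 genes, Olfr1344 to Olfr1350, at 6.44 to 6.56 Mb. All 8 were in a LAD in NS replicate 1 and in CT0 replicate 1, the 2 libraries with the widest bins (61 and 47 kb), and none of the 8 was in the other 12. Their host LADs ran from 5.31 to 9.59 Mb in NS replicate 1 and from 6.30 to 9.54 Mb in CT0 replicate 1. In the other libraries the nearest LAD lay 359 to 795 kb away. These 2 libraries held no other member in a LAD.

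The next cluster held Olfr291 and Olfr290, at 84.9 Mb. Olfr291 was in a LAD in 5 libraries, namely NS replicate 2, CT12 replicate 2, CT18 replicate 1 and both CT30 mice. The symbol Olfr290 is carried by overlapping gene models, ENSMUSG00000070459.6 and ENSMUSG00000116179.1, both counted here and both in a LAD in 9 libraries. The near border of the LAD fell between or beside these genes, at 84.7 to 84.9 Mb in the 9 libraries with a LAD there.

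The 15 genes from Olfr310 to Olfr292, at 86.3 to 86.7 Mb, were in LADs in more libraries than any other member. All 15 were in a LAD in 12 libraries, including CT6 replicate 1 and both CT30 mice, and none was in NS replicate 1 or CT0 replicate 1. The host LAD began at 84.7 to 85.1 Mb and ended anywhere from 87.0 to 96.4 Mb. The near border varied by 329 kb and the far border by 9429 kb. In the 2 libraries lacking this LAD the nearest LAD was 6.14 and 6.28 Mb away. These genes account for 15 of the 18 members in LADs in CT30 replicate 1 and for all 15 in CT6 replicate 1.

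Olfr520 and Olfr521, at 99.7 to 99.8 Mb, were in a LAD in 0 libraries, and the nearest LAD lay 2.76 to 4.44 Mb away. They sit apart from the class I array, on its near side.

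The class I array, Olfr543 to Olfr692, was the largest cluster, with 129 members over 2.89 Mb (102.48 to 105.37 Mb). It carried a LAD in 9 libraries, the 9 of smaller bins, with 85 to 125 members (65.9% to 96.9%) in LADs. By library, 103 members were in LADs in NS replicate 2, 101 in CT0 replicate 2 and 87 in CT6 replicate 2. At CT12 the counts were 103 and 108, at CT18 they were 108 and 94, and at CT24 they were 125 and 85. In NS replicate 1, CT0 replicate 1, CT6 replicate 1 and both CT30 mice 0 of the 129 were in a LAD, and the nearest LAD there lay 2.36 to 7.19 Mb away. Of the members, 66 were in a LAD in all 9 libraries that called the array and 3 (Olfr543, Olfr544 and Olfr545) in none.

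The array's borders shifted between mice, more at the near end than at the far end. The first LAD start ranged over 762 kb, from 102.52 to 103.28 Mb, and the last LAD end over 188 kb, from 105.20 to 105.39 Mb. Both extremes of the near border came from CT24, where the LAD started at 102.52 Mb in replicate 1 and at 103.28 Mb in replicate 2. The number of libraries with a member in a LAD changed by fewer than 5 between any neighbours inside a cluster, although the libraries themselves could differ more, as beside the Trim genes below. From the near end, Olfr547 to Olfr558 (12 genes) were in a LAD in 1 library, the 4 genes from Olfr560 to Olfr564 in 4, the 10 from Olfr566 to Olfr576 in 6, the 11 from Olfr582 to Olfr594 in 8, and the 48 from Olfr596 to Olfr646 in 9.

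The listed members of the array with known ligands or expression outside the nose are given next. Olfr544, a receptor for the dicarboxylic acid azelaic acid that has been studied in liver and fat, and its neighbour Olfr545 were in a LAD in 0 of 14 libraries. Olfr558, which responds to short-chain fatty acids and is the counterpart of human OR51E1, was in a LAD in CT24 replicate 1 only. Olfr78, a short-chain fatty acid receptor expressed in kidney and carotid body and the counterpart of human OR51E2, was in a LAD in 4 libraries: CT0 replicate 2, both CT12 mice and CT24 replicate 1. At the far edge Olfr690 and Olfr691 were in a LAD in 5 libraries (CT6 replicate 2, both CT18 mice and both CT24 mice), and the last gene, Olfr692, in 2 (CT18 replicate 1 and CT24 replicate 2).

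The genes beside the beta-globin locus were in the middle of the array and in its steadiest part. Olfr69, Olfr68 and Olfr67 on one side of the globin genes and Olfr66, Olfr64 and Olfr65 on the other were each in a LAD in all 9 libraries that called the array. The 5 beta-globin genes between them, from the adult Hbb-bt and Hbb-bs to the embryonic Hbb-bh1 and Hbb-y, had the same states in the same 9 libraries. The 5 Usp17l genes (deubiquitinases) were in a LAD in 8 or 9 libraries.

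The array was interrupted at the tripartite-motif genes, a family with antiviral members such as Trim5. The 10 genes from Trim6 to Trim30d lie between Olfr649 and Olfr651, and they were in a LAD in 3 libraries, CT18 replicate 1, CT24 replicate 1 and CT24 replicate 2, in which 1 LAD spanned the array. In the other 6 libraries 2 LADs flanked them, separated by 318 to 484 kb, and 0 of the 10 were in a LAD. The gap opened at 104.11 to 104.21 Mb and closed at 104.51 to 104.70 Mb. Bin size moved with this split: it was 14 to 19 kb in the 3 libraries with an unbroken LAD and 4 to 11 kb in the 6 with a gap. Its part in the split was not tested. Members beside the gap had intermediate states, with Olfr648 in 5 libraries, Olfr649 in 4 and Olfr651 to Olfr653 in 7. Trim21 and Trim68, near the start of the array, were in a LAD in 1 library each.

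**Figure D4:**
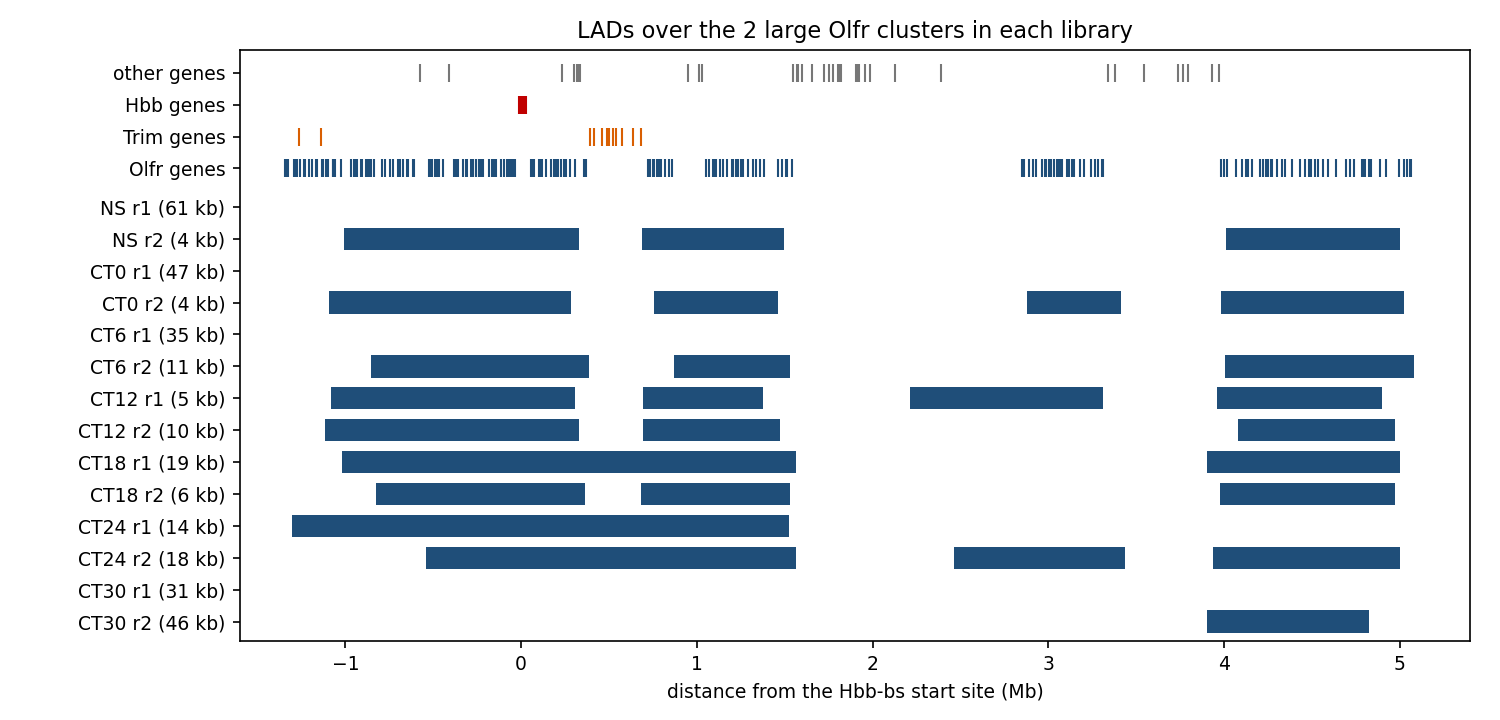
LADs that hold a member (blue bars) over the 2 large Olfr clusters in each library (rows, with bin size in kb), against distance from the Hbb-bs start site in Mb, with tick marks above for Olfr, Trim, Hbb and other genes. The Trim genes fall in a gap of 318 to 484 kb between LADs in 6 libraries and inside a LAD in 3. Bars reach into the stretch between the clusters, from chromosome position 106.04 Mb in CT12 replicate 1 and from 106.29 Mb in CT24 replicate 2. A LAD without members would not be drawn.

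Between the class I array and the next cluster lie 21 protein-coding genes, and 19 of them were in a LAD in 0 libraries. They include Hpx, which encodes the plasma haem carrier hemopexin made by liver, Cckbr (a cholecystokinin receptor) and Dchs1 (a protocadherin). The exceptions were Gm5901, next to Olfr692, in 2 libraries and Gvin1 in 1. Cnga4, a subunit of the olfactory cyclic nucleotide-gated channel, lies in this stretch, and its nearest LAD was 0.0116 to 10.1 Mb away (median 0.111 Mb).

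The cluster from Olfr693 to Olfr519 holds 68 class II genes over 2.21 Mb (106.68 to 108.89 Mb). A gap of 673.9 kb divides it into 26 genes, Olfr693 to Olfr716, and 42 genes, Olfr467 to Olfr519, and the 2 stretches had different states. The first was in a LAD in no more than 3 libraries, CT0 replicate 2, CT12 replicate 1 and CT24 replicate 2. It contains Olfr2 (the I7 receptor, activated by octanal) and Olfr17 (the P2 receptor, used in classic axon-targeting work), each in a LAD in those 3 libraries. In the second stretch 34 of the 42 were in a LAD in 8 or 9 libraries. Of 9 libraries with members in LADs, 8 had smaller bins and 1 was CT30 replicate 2 (46 kb), where 34 genes of the cluster were in a LAD while the class I array had 0.

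Per library the class II cluster had 0 and 36 members in LADs in the NS mice, 0 and 63 at CT0 and 0 and 40 at CT6. The counts were 62 and 33 at CT12 and 38 and 37 at CT18, then 0 and 64 at CT24, and 0 and 34 at CT30. The mice of a time point were thus close at CT18 and far apart at every other time point. CT24 replicate 1 had the most class I members in LADs of any library, 125 of 129, and 0 of the 68 in this cluster, and CT24 replicate 2 had the fewest class I members of the 9 libraries that called the array, 85, and the most in this cluster, 64. The far border ended at 108.65 to 108.91 Mb, a spread of 259 kb. The first LAD start varied over 1870 kb, because CT0 replicate 2, CT12 replicate 1 and CT24 replicate 2 had a separate LAD over the first stretch. The LAD over the second stretch began at 107.73 to 107.91 Mb. The genes that lie in the 673.9 kb gap were rarely in LADs: Syt9, Olfml1, Ppfibp2 and 5330417H12Rik in 0 libraries, Nlrp14, Rbmxl2 and Cyb5r2 in 2 each and Ovch2 in 4.

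The last cluster, Olfr522 to Olfr541 (19 genes, 140.16 to 140.70 Mb), was in a LAD in 0 libraries. The nearest LAD was 31.3 to 44.9 Mb away, farther than for any other cluster. Together with Olfr520, Olfr521, Olfr543, Olfr544 and Olfr545 these genes make up the 24 members in a LAD in 0 libraries.

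The class I array was compared with all other members in the same way as the gene sets above. Its share was higher by 11.7 points on average (SD 31.1, higher in 8 of 14 libraries, exact permutation adjusted p = 0.221), which did not exceed the spread between libraries. It passed the threshold with LADs of at least 1 Mb (16.3 points, exact permutation adjusted p = 0.048). In the 9 libraries of smaller bins it was 28.0 points, given with no test because these are the same 9 libraries that carried a LAD in the array.

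By time point, members in a LAD in both mice numbered 0 in NS (background 2.35%) and 0 at CT0 (background 3.72%). There were 15 at CT6 (background 5.89%), and then 152 at CT12, against a background of 7.12%. CT18 had 146 (background 7.39%), CT24 had 101 (background 6.53%) and CT30 had 18 (background 4.41%). Such members were most numerous at CT12 and CT18. All 15 at CT6 were the genes from Olfr310 to Olfr292, and the 18 at CT30 were those with Olfr291 and both Olfr290 models. The class I array and the cluster from Olfr693 to Olfr519 both held such members only at CT12 (103 of 129 and 32 of 68) and CT18 (94 and 37). At CT24 their counts were 84 and 0, and the other members in both mice were the 15 from Olfr310 to Olfr292 and both Olfr290 models. Members in a LAD in only 1 mouse numbered 165 in NS, 189 at CT0, 127 at CT6 and 106 at CT24. They numbered 37 at CT12, 18 at CT18 and 34 at CT30. No background was computed for this count, so it cannot be read as particular to the members.

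Mean shares (± SD, n = 2 each) were 33.8% ± 43.2 in NS, 38.7% ± 50.1 at CT0 and 32.2% ± 36.8 at CT6. They were 69.9% ± 6.67 at CT12 and 63.5% ± 5.22 at CT18, then 63.1% ± 6.96 at CT24 and 14.3% ± 9.85 at CT30. To ask whether the share varied with circadian time, the 6 CTs were compared by an F ratio with an exact permutation test over the 10395 divisions of the 12 libraries into 6 pairs. The F ratio was 1.42 (exact permutation p = 0.43), and for the share relative to the other genes of chromosome 7 it was 1.39 (exact permutation p = 0.41). With 2 mice per time point, differences between time points were thus not shown to exceed the spread between mice of a time point. The CT12, CT18 and CT24 libraries all had smaller bins and both CT30 libraries had larger bins, so the low share at CT30 and bin size cannot be told apart.

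The entrainment comparison set CT0 against NS. The mean share was 4.92 points higher at CT0 (exact two-sided permutation p = 1, 2 mice against 2, where the smallest possible p is 0.33), and leaving out a mouse moved it either way, to -25.6 points without NS replicate 1, 35.5 without NS replicate 2, 40.4 without CT0 replicate 1 and -30.5 without CT0 replicate 2. Members that went from a LAD in neither NS mouse to a LAD in both CT0 mice numbered 0 (background 0.328%), and 0 went the other way (background 0.374%). In both groups replicate 1 had a member share of 3.28%, so no member could be in a LAD in both mice except the 8 from Olfr1344 to Olfr1350.

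Between consecutive CTs the same strict rule gave few changes at most steps. From CT0 to CT6 and from CT18 to CT24, 0 members were gained (backgrounds 0.989% and 0.219%) and 0 lost (0.0866% and 0.451%). From CT0 to CT6 no other outcome was possible. At CT0, 0 members were in a LAD in both mice, and the 15 in both mice at CT6 were all in a LAD in CT0 replicate 2. Only these 15 could be lost from CT6 to CT12. From CT6 to CT12, 26 were gained (background 0.511%) and 0 lost (0.419%). These were both Olfr290 models, 4 genes from Olfr560 to Olfr564, 10 from Olfr566 to Olfr576, 3 from Olfr651 to Olfr653 and 7 from Olfr654 to Olfr661, at the near edges of LADs or beside the Trim gap. In CT6 replicate 1 (35 kb bins, against 5 and 10 kb at CT12) 0 of the 129 class I members were in a LAD. For the gained class I genes the CT6 state thus rested on replicate 2 alone. From CT12 to CT18, 4 were gained (0.433%), Olfr648, Olfr689, Olfr690 and Olfr691, and 4 lost (0.169%), Olfr560, Olfr78, Olfr561 and Olfr564; apart from Olfr78, Olfr690 and Olfr691 these are named after their values were seen. From CT24 to CT30, Olfr291 was gained (0.565%) and 84 were lost (2.11%), all 84 in the class I array. Both CT30 libraries had bins of 31 and 46 kb, against 14 and 18 kb at CT24.

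Whether mice of the same time point shared member states beyond other mice was tested over pairs of libraries, and no excess was found. The 2 libraries of a time point had the same state at 60.4% of members on average, and libraries of different time points at 61.2% (difference -0.732 points, exact one-sided permutation p = 0.591 over 135135 divisions into 7 pairs). Agreement within time points ranged from 22.5% at CT0 to 92.6% at CT18.

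GC content around the genes differed between LAD states. In windows of 100 kb centred on the start site the median was 38.9% for members (range 35.0% to 47.3%), 46.3% for other genes of chromosome 7, 44.2% for all protein-coding genes and 38.2% for Olfr genes of other chromosomes. Members in a LAD in 0 libraries had a median of 41.8%, those in 1 to 6 libraries 39.7%, and those in 7 or more 38.4%. The Spearman correlation of GC content with the number of libraries was -0.713 over 244 members, -0.531 over the 129 class I genes and -0.374 over the 68 genes of the class II cluster. It is given as a description, since neighbours share sequence windows and LADs.

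By cluster, the medians were 42.0% for Olfr1344 to Olfr1350, 38.8% for Olfr291 and Olfr290, 35.8% for Olfr310 to Olfr292, 45.2% for Olfr520 and Olfr521, 38.8% for the class I array, 38.9% for the class II cluster and 41.1% for Olfr522 to Olfr541. The most AT-rich cluster, Olfr310 to Olfr292, was thus the one in LADs in 12 libraries, and the 2 clusters in LADs in 0 libraries were on the GC-rich side. The 26 and 42 genes on either side of the gap in the class II cluster both had a median of 38.9% although their LAD states differed. The 10 Trim genes had 41.4%.

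**Figure D5:**
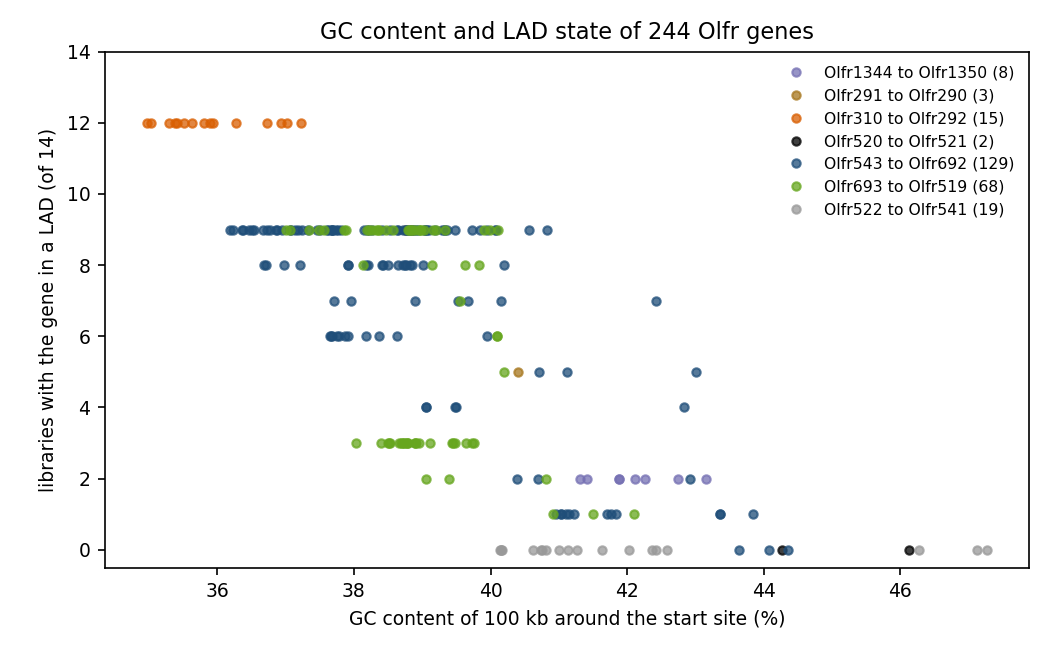
GC content of the 100 kb around each member's start site (x axis, %) against the number of libraries with the gene in a LAD (y axis, of 14), 1 point per Olfr gene and coloured by cluster. Members in 12 libraries lie at the AT-rich end (median 35.8%), and those in 0 libraries have a median of 41.8%.

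Genes of olfactory signalling and of receptor choice on any chromosome were listed for comparison. The list holds the transduction genes Gnal, Adcy3, Cnga2, Cnga4, Cngb1, Ano2, Slc24a4 and Stoml3, the marker gene Omp, the receptor chaperones Rtp1 and Rtp2, the exchange factor Ric8b, the transcription factors Lhx2, Ebf1, Ldb1 (a cofactor) and Emx2, and the heterochromatin genes Lbr, Kdm1a, Ehmt1 and Ehmt2. Of these 20 genes, 0 had a start site in a LAD in any library, a state shared by 83.3% of all protein-coding genes. Omp, on chromosome 7, lay 1.37 to 2.85 Mb from the nearest LAD, Lhx2 0.907 to 1.18 Mb and Cngb1 0.607 to 1.75 Mb.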

How the data were processed

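LAD lists from LMNB1 ChIP-seq of 14 livers were analysed, 2 mice for NS and for every CT, grouped by the deposited labels. The deposited files hold LADs as chromosome, start and end on mm10, with no score. Per the study's methods and the submitters' processing notes, the authors removed duplicates with Picard, mapped reads with Bowtie2 2.25.0, gave each ChIP and its input equal read numbers for each chromosome, and called LADs with EDD in each mouse after averaging the estimated gap penalty and bin size over repeated runs. Read depth is therefore unknown, and the precision is that of 2 mice per time point. Inputs and RNA-seq were not analysed here.

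LADs were used as deposited, with start sites from GENCODE vM21 and sequence from GRCm38.p6, and 0 LADs ended beyond a chromosome. Of 2845 LAD starts, 82 off the whole-kb grid were left out of the bin size. Analyses used Python 3.11.15, NumPy 2.4.6, SciPy 1.17.1, pandas 2.3.3 and matplotlib 3.10.9, and were tested on simulated data. Background percents are over 21938 protein-coding genes. Alternatives were LADs of at least 1 Mb, borders moved by 1 bin, state by gene body, other cluster gaps, clusters weighted equally, each library left out and the replicate number as a block. Members, lists and tests were chosen with earlier results of these data known. Named members are the ends of clusters of 5 or more, both sides of changes by 5 or more libraries, all members of smaller clusters, a list with known ligands or beside the globin genes, and by family the other genes inside clusters, of which 1 family is not reported here. Stretches with a shared state are named by their ends. The planned correlation of member share with coverage and bin size over 14 libraries was not made, since the libraries fall into separate sets, and it was made within the 9 of smaller bins.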

Additional observations from a re-analysis of the deposited data

How the results depend on the processing

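Of 321 recomputed values of 16 results under 29 settings, 301 kept their direction and, where tested, their side of the threshold of 0.05. Some of them could not change. The F ratio over CTs does not use the NS libraries, and CT0 minus NS does not use those from CT6 to CT30. Shares and counts without a test have no side of the threshold. The count is therefore no measure of how firm the results are. With LADs of at least 1 Mb, members minus Olfr genes of other chromosomes became -13.5 points (exact permutation adjusted p = 0.0143), the class I array minus other members 16.3 points (adjusted p = 0.048, exact permutation), and agreement of replicate pairs minus other pairs 2.26 points (exact permutation p = 0.365). Without both CT30 mice, chosen after seeing the data, the class I difference was 18.8 points, but this drops 2 of the 5 libraries with the array at 0. In the 9 libraries of smaller bins, also chosen after seeing the data, it was 28.0 (the 9 libraries that called the array), members minus Olfr genes elsewhere were 3.73, minus Vmn genes -16.9 and minus all other genes 57.3. There 81 members were in a LAD in every library (background 4.7%). Members gained or lost from NS to CT0 are not counted there, since 1 mouse per group was left. The cause of these changes was not tested.

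Leaving out each library in turn gave 29.5 to 35.0 points for members minus other genes of chromosome 7, -8.17 to -3.49 for Olfr genes elsewhere, -33.2 to -27.9 for Vmn genes, 35.5 to 40.8 for all other genes and 6.31 to 16.1 for the class I array. The mean share was 42.8% to 48.3%. The F ratio over CTs was 0.805 to 4.15 (exact permutation p 0.0759 to 0.508), and 0.750 to 3.42 relative to chromosome 7. CT0 minus NS ran from -30.5 to 40.4 points and was negative without NS replicate 1 (-25.6) or CT0 replicate 2 (-30.5). Members in no LAD numbered 24 to 36. Gained members numbered 0 to 31, with 31 without CT0 replicate 1, and lost members 0 to 7, with 7 without NS replicate 1. Leaving out CT0 replicate 1 or NS replicate 1 leaves 1 mouse in that group, so the rule of both mice rests there on that mouse alone. The counts of 31 and 7 therefore follow a weaker rule than the main counts of 0 and cannot be compared with them. No background is given for them. Agreement of replicate pairs minus other pairs ran from -6.23 to 6.27 points and turned positive without either NS library, either CT0 library, either CT6 library or CT24 replicate 2.

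The sources used here do not say what same-numbered mice share. Deviations of same-numbered libraries correlated from -0.478 to 0.747, over 0.1 in 14 of 21 pairs, and 12 of 14 libraries correlated best with their own number. With 2 mice per time point the deviations of a pair mirror each other, so both numbers gave the same r. The 14 libraries are therefore not independent here, and these values cannot decide whether same-numbered mice share something. With the replicate number as a block the F ratio was 1.8 (exact permutation p = 0.362), relative to chromosome 7 it was 1.83 (exact permutation p = 0.319), and CT0 minus NS stayed 4.92 points (exact permutation p = 1, smallest possible 0.5); no call changed. After a line on bin size, added later, the F ratios were 1.04 (exact permutation p = 0.454) and 0.770 (exact permutation p = 0.59). Depth is unknown, and no filter on a LAD score could be had.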

Other observations

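Chromosome 7 carries 49 further Olfr genes that GENCODE vM21 does not class as protein-coding, 35 of them unprocessed pseudogenes, 3 transcribed unprocessed pseudogenes and 11 polymorphic pseudogenes. Of these, 7 were in a LAD in 0 libraries, 31 in 7 or more and 0 in all 14, and the highest count was 12. Olfr1345-ps1, inside the cluster from Olfr1344 to Olfr1350, was in a LAD in the same 2 libraries as its neighbours, NS replicate 1 and CT0 replicate 1. Olfr306-ps1, inside the cluster from Olfr310 to Olfr292, was in a LAD in the same 12 libraries as that cluster.

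Within the 9 libraries of smaller bins the member share was set against genome LAD coverage and against log2 bin size, 2 relations in all. For coverage Pearson's r was -0.517 (exact permutation p = 0.156, adjusted 0.312) and Spearman's rho -0.494 (exact permutation p = 0.18, adjusted 0.36), and r was -0.583 without the 2 libraries farthest from the median coverage. For bin size r was -0.351 (exact permutation p = 0.342, adjusted 0.342) and rho -0.227 (exact permutation p = 0.55, adjusted 0.55), and r was -0.186 without the 2 farthest. Within replicate 2 alone, 6 libraries, r was -0.425 for coverage and -0.235 for bin size. Neither relation passed the threshold.

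The deposited names number the libraries 1, 2 or 3, which differs from the replicate numbers of the labels. The member share was 3.28% to 67.2% (median 6.76%) in the 6 libraries numbered 1, 21.3% to 68.0% (median 59.8%) in the 5 numbered 2, and 64.3% to 74.6% (median 74.2%) in the 3 numbered 3. Of the 6 numbered 1, 4 had bins of 31 kb or more, against 1 of the 5 numbered 2 and 0 of the 3 numbered 3. What the numbers stand for was not tested.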
